A study of Danio rerio with 10 samples.

Results

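The comparison of the induced torpor+radiation group , called 18.5-mel-rad in the study, with the control group, called 28.5-Ctrl, asked what the muscle of a zebrafish expresses when cooling, melatonin and low dose radiation are given together. Its members were all genes of the deposited table of that comparison with a baseMean of at least 10, which gave 6504 genes of the 9411 in the table. The baseMean averages the read counts of every fish after scaling for depth, and values on that scale are called normalized counts here. All 9411 genes have a single human orthologue that in turn matches a single zebrafish gene, and they are named by the human symbol in the table. An adjusted p was given for 6499 of the members, and the other 5 were not tested.

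The series holds dorsal muscle of 10 adult zebrafish of the AB strain, a tissue made mainly of fast-twitch fibres. The induced torpor+radiation group had 3 fish, which were acclimated to 18.5 °C, kept in 24 µM melatonin for 10 days and given a whole-body dose of 32.64 cGy. The induced torpor group (18.5-mel) had 2 fish with the same cooling and melatonin and no radiation. The radiation group (28.5-rad) had 3 fish at 28.5 °C with the same dose and no melatonin, and the control group had 2 fish at 28.5 °C with neither. The dose was split over a pair of exposures to a cesium-137 source under tricaine anaesthesia, and for every group the experiment ended on day 10. Cooling and melatonin were always given together in these samples, so they cannot be told apart. The labels name fish by a letter and a number without saying what the letter means. The induced torpor+radiation group had 2 M codes and 1 F code, both torpor fish had M codes, and the control and radiation fish had F codes. From the control group, the induced torpor+radiation group thus differed in temperature, melatonin, dose and code letter. It also differed in the anaesthesia and handling at exposure, which the paper does not describe for fish without radiation. None of these differences can be told apart in that comparison.

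Zebrafish do not hibernate, and the model imitates torpor from outside by lowering body temperature and locomotion. Torpor is a state of lowered metabolism and inactivity in which hibernating mammals keep muscle mass in spite of disuse. In fish, cold acclimation of muscle is known to raise the density of mitochondria, the organelles that make ATP by oxidative phosphorylation. The unfolded protein response is the programme by which a cell with misfolded proteins in its endoplasmic reticulum makes more chaperones. Ionizing radiation damages DNA directly and through reactive oxygen species, and muscle fibres, which no longer divide, depend on repair to keep their genome. Gene roles given here are those known in vertebrates, most of them from mammals.

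In the induced torpor+radiation group 625 genes were higher and 426 were lower than in the control group (adjusted p of 0.1 or less), which is 9.62% and 6.55% of the genes tested. Together 16.2% of the tested genes were called. The median log2 fold change was 1.16 over the genes called higher and −1.38 over those called lower, and 432 genes rose and 340 fell by at least 1 on the log2 scale. The median over all members with a baseMean of at least 50 stood at 0.15. After centring on that value 375 genes were higher and 573 lower, so that genes called higher made up 39.6% of calls instead of 59.5%. The calls rest on a Wald test read against the normal distribution. Read against a t distribution with 6 degrees of freedom, no gene passed, with a lowest adjusted p of 0.188, while 1000 genes had an unadjusted p under 0.05 in that reading and 1591 in the deposited one.

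**Figure D1:**
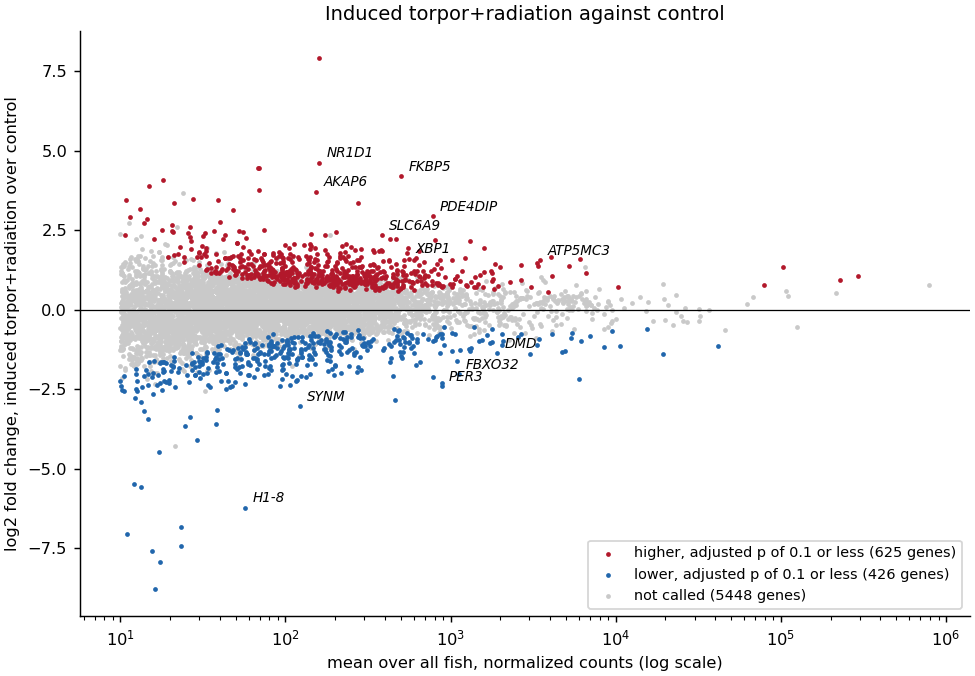
Mean over all fish in normalized counts (horizontal, log scale) against the log2 fold change of the induced torpor+radiation group over the control group (vertical) for the 6499 tested genes. The 625 genes called higher are red, the 426 called lower are blue and the others grey, with named genes labelled. *FKBP5* and *NR1D1* stand high at 4.19 and 4.62, and *H1-8* stands low at −6.23.

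The tables hold no values of single fish. The group means given here were recovered from the baseMean and the 3 log2 fold changes over control, and their error is that of the fold change (SE, 3 fish against 2). Whether the fish within a group overlap those of another cannot be read from them.

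The muscle identity of the samples was visible in the means. Nebulin (*NEB*), the ruler of the thin filament, averaged 27624 normalized counts in the induced torpor+radiation group and 60235 in the control group, and fast-type *MYBPC2* averaged 39187 and 39750. Of 9 fibre markers among the members 1 was higher (*TCAP*) and 1 lower (*NEB*), 11.1% each, near the 9.62% and 6.55% over all genes. The fibre marker *TNNC1* had a baseMean of 0. Markers of other tissues were looked at in the same way. Summed over the 20 oocyte markers in the table, 8 of which were members, the level was 79.0 in the induced torpor+radiation group, 74.7 in the induced torpor group, 46.3 in the radiation group and 742 in the control group. The oocyte linker histone *H1-8* averaged 3.48, 6.39 and 8.83 normalized counts in the induced torpor+radiation, induced torpor and radiation groups and 260 in the control group. The 5 markers called lower (*H1-8*, *TUBA4B*, *ZAR1*, *KPNA7* and *NPM2*) passed the baseMean minimum only through the control group, so their calls carry no weight as a count. The other 3 members were not called. *PIWIL2* averaged 22.5 in the induced torpor+radiation group and 8.65 in the control group, *SYCP1* 21.8 and 7.49, and *STK31* 10.9 and 13.8. In the induced torpor group they averaged 14.4, 18.2 and 12.1. These 3 genes made up most of the sum in the induced torpor+radiation and induced torpor groups, so there the sum says little about the 5 markers called lower. The further markers *MOS* and *OTX2* had a baseMean of 0. *SPATA4* and *SPAG6* were the only sperm markers to pass the minimum, *SPATA4* with 121 normalized counts in the induced torpor+radiation group and 5.56 in the control group and *SPAG6* with 68.7 and 13.3. The 13 sperm markers in the table together gave 209 in the induced torpor+radiation group and 233 in the induced torpor group. The radiation and control groups gave 39.3 and 38.9. *SPATA4* and *SPAG6* made up most of the sum in the induced torpor+radiation and induced torpor groups. Among the others *SPATA18* averaged 10.35 in the induced torpor+radiation group and 6.67 in the control group, and *DNAH1* 4.21 and 9.91. The remaining sperm markers were near 0 in both groups, and *TSSK6* and *TEKT2* had a baseMean of 0. *SPATA4* passed the baseMean minimum only through the induced torpor+radiation and induced torpor groups, so its call carries no weight as a count. None of the 16 leukocyte markers was called. Of the liver markers, *RBP4* averaged 5818 and 4891 normalized counts in the induced torpor+radiation and control groups, while *AHSG* and *F9* were near 0. The part of gonadal RNA in the results below was not tested. In bulk muscle, fewer cells of a type and less RNA per cell cannot be told apart.

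The genes that rose with the smallest p formed a varied group. *AKAP6*, the anchor that holds protein kinase A near the nuclear envelope and sarcoplasmic reticulum of striated muscle, averaged 378 normalized counts in the induced torpor+radiation group and 28.7 in the control group (13.2-fold, log2 fold change 3.72 ± 0.38 SE, adjusted p 9.61e-19). *PDE4DIP*, which anchors a cyclic AMP phosphodiesterase, averaged 1603 and 208 (7.70-fold, adjusted p 3.04e-16). Both are scaffolds of cyclic AMP signalling. Both were also called higher for induced torpor against the control group, with means of 135 for *AKAP6* and 1058 for *PDE4DIP*. Their means in the radiation group, 24.4 and 147, were below those of the control group, though neither was called.

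A pair of genes of glucocorticoid handling rose as well. *FKBP5*, a co-chaperone of the glucocorticoid receptor and one of its targets, averaged 991 normalized counts in the induced torpor+radiation group and 54.2 in the control group (18.3-fold, log2 fold change 4.19 ± 0.48 SE, adjusted p 2.68e-15). *HSD11B2*, the enzyme that inactivates cortisol, averaged 1189 and 260 (4.57-fold, adjusted p 1.06e-12). *KLF15*, another known glucocorticoid target, went the other way, with 122 against 276 (adjusted p 0.00691). *FKBP4*, the counterpart of *FKBP5* on the same receptor, also fell, with 1214 against 2491 (adjusted p 0.0149).

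Other leading upregulated genes belonged to amino acid handling, repair and redox defence. *THNSL2*, a threonine synthase-like enzyme, averaged 474 in the induced torpor+radiation group and 45.8 in the control group (10.4-fold). *SLC6A9*, the glycine transporter GLYT1, averaged 425 and 83.7 (5.08-fold), *APEX1*, the endonuclease that cuts abasic sites in base excision repair, 764 and 163 (4.70-fold), and the chromatin protein *HMGB2* 2335 and 611 (3.82-fold). *GPX4*, which reduces lipid peroxides, averaged 1691 and 570 (2.97-fold), and *PMM2*, an enzyme that feeds protein glycosylation, 89.9 and 10.2 (8.82-fold). All 6 had an adjusted p of 2.2e-07 or less. *SPATA4*, counted above as a sperm marker, was also among the 10 genes that rose with the smallest p.

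The leading downregulated genes fell into a group with mean levels near 0 and a group of more highly expressed genes. The first comprised *H1-8*, *CCNA1*, a cyclin of germ cells, *KPNA7*, an importin of oocytes, and *CAPRIN2*, an RNA-binding protein. *CCNA1*, *KPNA7* and *CAPRIN2* averaged at most 0.632 in the induced torpor+radiation group, below the floor of 3 normalized counts used here for folds, and 108, 76.9 and 65.8 in the control group. They were thus at least 36.1-fold, 25.6-fold and 21.9-fold lower. *KPNA7* is itself one of the oocyte markers called lower, and *CCNA1* and *CAPRIN2* ran with that set. All 3 genes passed the baseMean minimum only through the control group. The torpor and radiation groups were also low, at no more than 6.32 in each of the 3 genes.

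In the second group the radiation mean stayed close to that of the control group, and the induced torpor mean was low as well. In the induced torpor group *ABTB1* averaged 409, *SETD7* 189, *EIF4A2* 239, *PHYKPL* 66.6 and *PPP4R1* 49.7. Each of these was called lower for induced torpor against the control group too. *ABTB1*, an ankyrin and BTB domain protein, averaged 291 normalized counts in the induced torpor+radiation group, 1198 in the radiation group and 1261 in the control group (4.34-fold lower than control, adjusted p 7.03e-12). *SETD7*, a lysine methyltransferase, averaged 157, 769 and 660 (4.20-fold lower, adjusted p 2.46e-09). The translation initiation helicase *EIF4A2* averaged 297, 1520 and 1466 (4.94-fold lower, adjusted p 5.87e-09). *PHYKPL*, a lyase of hydroxylysine breakdown, averaged 41.3, 164 and 176, and *PPP4R1*, a regulatory subunit of protein phosphatase 4, 41.9, 191 and 192. *SYNM*, also among the 10 with the smallest p, is described with the cytoskeleton below.

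**Figure D2:**
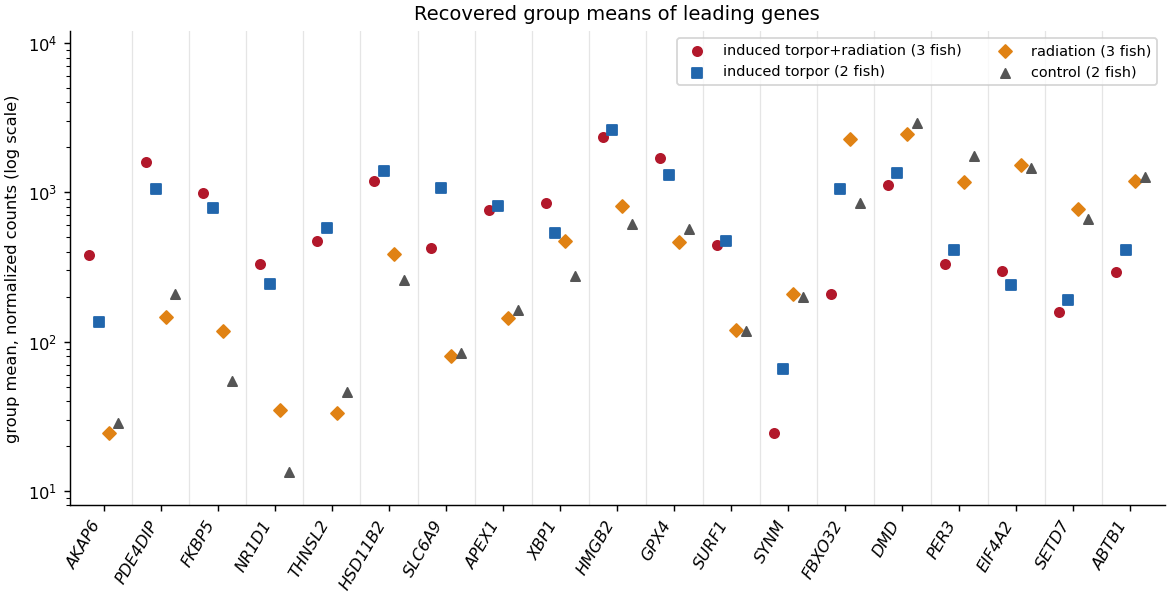
Recovered group means in normalized counts (vertical, log scale) of 19 leading or discussed genes in the induced torpor+radiation, induced torpor, radiation and control groups, from left to right within each gene. For most genes the groups at 18.5 °C lie together and apart from those at 28.5 °C. *FBXO32* is an exception, with 208 in the induced torpor+radiation group against 1055 in the induced torpor group.

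A few called genes had a mean at or under the floor of 3 normalized counts in a group, 8 of those called higher and 11 of those called lower, so that only a bound can be given. The highest of these bounds belonged to *LEAP2*, an antimicrobial peptide that also blocks the ghrelin receptor, with 274 in the induced torpor+radiation group, 362 in the induced torpor group, 18.3 in the radiation group and 1.13 in the control group, at least 91.3-fold higher than control. *CDKN1A*, the p53 target that encodes the cell cycle inhibitor p21, averaged 38.0, 23.4, 5.51 and 2.26 in the same order and was at least 12.7-fold higher (adjusted p 0.0108). *CDKN1A* passed the baseMean minimum only through the induced torpor+radiation group, where it was highest, so its call carries no weight. *LEAP2* was picked after its values were seen.

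Of 67 mitochondrial ribosomal proteins, 24 were higher and none lower (35.8%, against 9.62% of all genes tested), and 61 had a positive log2 fold change. Their median log2 fold change was 0.80, against 0.09 over all members, and after centring 16 were higher and 1 lower. The large-subunit gene *MRPL13* averaged 351 normalized counts in the induced torpor+radiation group and 108 in the control group (log2 fold change 1.70 ± 0.38 SE, adjusted p 0.000377), and *MRPL16* averaged 1212 and 492 (adjusted p 0.000649). *MRPL33* averaged 622 and 208, and *MRPL1* 73.3 and 13.3. The summed level of the 68 listed genes in the table was 19525 in the induced torpor+radiation group, 20174 in the induced torpor group, 15178 in the radiation group and 11741 in the control group. The median was 0.79 for induced torpor and 0.35 for radiation over the same controls, with 22 and 0 genes called higher, where 7.22% and 0.138% of all tested genes were called higher.

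Of 35 mitochondrial transcription and translation factors, 4 were higher (11.4%, near the 9.62% over all genes) and 1 lower, with a median of 0.45, and after centring 1 was higher and 2 were lower. *TFAM*, which packages and transcribes mitochondrial DNA, averaged 222 in the induced torpor+radiation group and 117 in the control group (log2 fold change 0.92 ± 0.27 SE, adjusted p 0.011). Among the termination factor genes *MTERF2* rose (220 against 113) and *MTERF1* fell (40.0 against 81.6, adjusted p 0.0927).

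The list of mitochondrial import and chaperone genes had 19 of 42 higher and none lower (45.2%, against 9.62% of all genes). Its median was 0.60, with 11 higher after centring. It included the small carriers of the intermembrane space, with *TIMM9* at 224 in the induced torpor+radiation group and 71.3 in the control group (adjusted p 0.000146) and *TIMM10* at 318 and 78.8 (adjusted p 0.00228). The inner membrane scaffold prohibitin (*PHB*) averaged 2472 and 918, and *CHCHD10* 828 and 238. The matrix chaperonin subunits *HSPD1* and *HSPE1* averaged 818 and 452 against 311 and 196, with adjusted p of 0.0938 and 0.0975.

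Of 39 assembly factors of the respiratory chain, 14 were higher and none lower (35.9%, against 9.62% of all genes). Their median was 0.81, and 10 were higher after centring. *SURF1*, which helps to build complex IV, averaged 442 normalized counts in the induced torpor+radiation group and 118 in the control group (3.75-fold, log2 fold change 1.91 ± 0.34 SE, adjusted p 2.16e-06). *SDHAF4*, an assembly factor of complex II, averaged 350 and 125, and *TTC19* of complex III 172 and 56.9. *FOXRED1* of complex I averaged 147 and 56.1 (adjusted p 0.00753). The assembly factors of 4 complexes were thus each represented among the genes that rose.

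Calls in the respiratory complexes themselves were all higher. Of 34 complex I subunits, 8 were higher and none lower (23.5%, against 9.62% of all genes), and 32 had a positive log2 fold change (median 0.46). The nuclear subunit *NDUFA5* averaged 1475 in the induced torpor+radiation group and 792 in the control group (adjusted p 0.00831), and *NDUFS6* averaged 1831 and 1036 (adjusted p 0.0453). The mitochondrially encoded *MT-ND1* averaged 133442 and 52084 (log2 fold change 1.36 ± 0.33 SE, adjusted p 0.00128). Of 8 complex IV subunits 4 were higher (50%, against 9.62% of all genes, median 0.76), among them *COX7C* (3768 against 1969) and *COX4I1* (12377 against 7505, adjusted p 0.0347). *MT-CO2* and *MT-CO3* averaged 396652 and 319213 in the induced torpor+radiation group, against 191733 and 165142 in the control group, with adjusted p of 0.0616 and 0.0919. Single members were called among 9 genes of complexes II and III with cytochrome c (*SDHC*, 1256 against 717) and 8 of ATP synthase (*ATP5MC3*, 5136 against 1739, adjusted p 0.000102), shares of 11.1% and 12.5% that lie near that over all genes. Under centring on the median, *COX4I1*, *NDUFS6*, *NDUFB9*, *SDHC*, *MT-CO2* and *MT-CO3* no longer passed, and complex I and complex IV kept counts of 3 and 1.

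Lists of fuel use were mixed. Of 27 genes of fatty acid oxidation 6 were higher and none lower (22.2%, against 9.62% of all genes, median 0.56). After centring 3 were higher and 1 lower. *HADHB*, a subunit of the trifunctional protein, averaged 8849 in the induced torpor+radiation group and 3994 in the control group (adjusted p 0.00761). *PECR*, a peroxisomal reductase, averaged 201 and 79.6. In the TCA cycle and pyruvate list 1 of 20 was higher and 3 were lower (5% and 15%, against 9.62% and 6.55% of all genes), with a median of −0.09. *IDH3A* rose (1923 against 1022) and *ME3*, *PDHX* and *PDK1* fell, *ME3* with 1298 against 2263. Among 15 genes of glycolysis and glycogen, glycogen synthase (*GYS1*) averaged 2707 in the induced torpor+radiation group and 6813 in the control group (log2 fold change −1.33 ± 0.31 SE, adjusted p 0.000774), and hexokinase *HK1* 127 and 325. *PFKFB3*, which makes the activator of phosphofructokinase, rose (1784 against 583, adjusted p 0.0301), as did the D-lactate dehydrogenase *LDHD*. The list held 2 genes called higher and 3 called lower (13.3% and 20%), or 2 and 5 after centring. Its median was −0.32 over these 15 genes and 0.36 over the 12 with a baseMean of at least 50, since 3 weakly expressed members were all negative.

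Of 28 redox defence genes 9 were called higher and none lower (32.1%, against 9.62% of all genes). Their median was 0.58, and 5 were higher after centring. The other 19 were not called, and 6 members had a negative log2 fold change. Besides *GPX4*, the superoxide dismutases of the cytosol (*SOD1*, 455 in the induced torpor+radiation group and 229 in the control group, adjusted p 0.00128) and of the mitochondrion (*SOD2*, 2390 and 1081, adjusted p 0.00269) were higher. *GLRX5*, which serves iron-sulphur cluster assembly, averaged 550 and 253, and the peroxiredoxin *PRDX5* 1300 and 483. *SOD1*, *SOD2* and *GLRX5* had means of 425, 2337 and 622 in the induced torpor group. In the radiation group they were at 209, 1241 and 363.

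**Figure D3:**
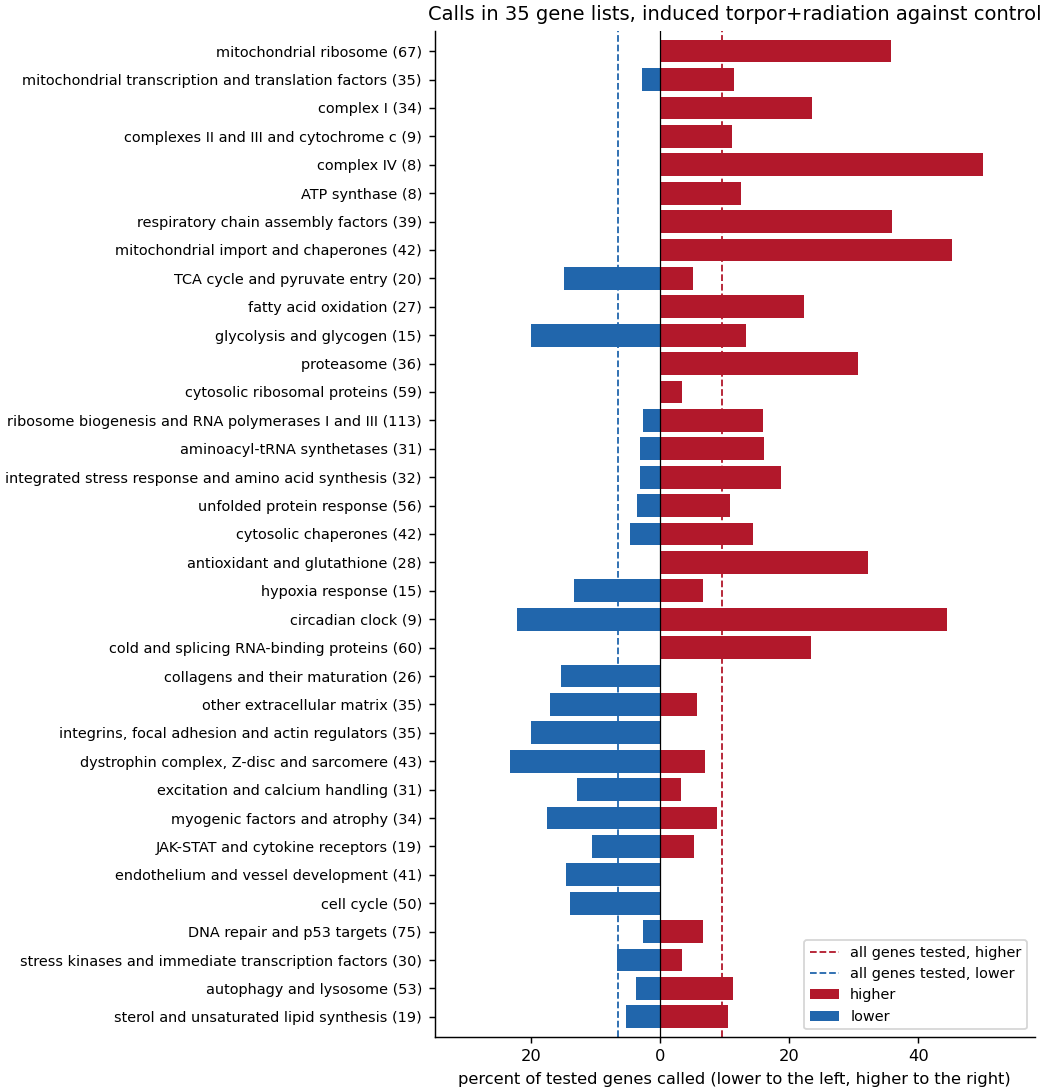
Percent of the tested genes of 35 lists called higher (red, to the right) or lower (blue, to the left) in the induced torpor+radiation group against the control group, with the number tested in brackets and the share over all genes as dashed lines (9.62% and 6.55%). The mitochondrial ribosome, assembly, import, proteasome and antioxidant lists lie to the right and the adhesion, sarcomere and vessel lists to the left.

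Of 36 proteasome genes 11 were higher and none lower (30.6%, against 9.62% of all genes). Their median was 0.64, and 5 were higher after centring. The core subunit *PSMB3* averaged 680 normalized counts in the induced torpor+radiation group and 317 in the control group (adjusted p 0.00489), and the lid subunits *PSMD7* and *PSMD8* averaged 809 and 860 against 429 and 410. Ribosome biogenesis had 18 of 113 genes higher and 3 lower (15.9% and 2.65%, against 9.62% and 6.55% of all genes). Its median was 0.39, and after centring 12 were higher and 5 lower. Among those that rose were *EMG1*, a methyltransferase of 18S rRNA (110 against 33.6, adjusted p 0.00108), *DCAF13* and the RNA polymerase III subunit *POLR3K*, while *NSA2* of the large subunit fell (1876 against 3201). Cytosolic ribosomal proteins themselves gave 2 calls in 59, *RPLP2* (1583 against 752) and *RPS29* (4766 against 3214), a share of 3.39%. Under centring *RPS29* was not called.

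Amino acid supply and tRNA charging gave mixed lists. In the list of the integrated stress response and amino acid synthesis 6 of 32 were higher and 1 lower (18.8% and 3.125%, against 9.62% and 6.55% of all genes). Spermine synthase (*SMS*) averaged 922 in the induced torpor+radiation group and 241 in the control group (log2 fold change 1.93 ± 0.30 SE, adjusted p 2.22e-08), and the glutamine transporter *SLC38A2* 5868 and 2820. *DDIT3*, the stress factor CHOP, was the gene that fell, with 98.1 against 184 (adjusted p 0.0578). Of 31 aminoacyl-tRNA synthetases 5 were higher and 1 lower (16.1% and 3.23%, against 9.62% and 6.55% of all genes). Those that rose were led by *CARS1* (204 against 68.5) and *QARS1* (396 against 185), and the lysyl enzyme *KARS1* was lower (1222 against 1867). The median of that list was 0.09, the same as over all members, and −0.07 after centring, with 3 higher and 1 lower.

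Genes of the unfolded protein response gave calls in both directions. Of 56 genes 6 were higher (10.7%, against 9.62% of all genes) and 2 lower, and after centring 4 were higher and 5 lower. *XBP1*, the transcription factor at its centre, averaged 844 normalized counts in the induced torpor+radiation group, 539 in the induced torpor group, 471 in the radiation group and 277 in the control group. Its log2 fold change over control was 1.61 ± 0.27 SE (adjusted p 3e-07), against 0.96 for induced torpor and 0.77 for radiation. The induced torpor+radiation group was not called against the induced torpor group, with a difference of 0.65 ± 0.26 SE and an adjusted p of 0.876. *TXNDC5*, a protein disulphide isomerase, averaged 506 in the induced torpor+radiation group and 216 in the control group (adjusted p 0.00129), and *SSR3* of the translocon 138 and 66.6. *SDF2L1*, *CANX* and *ATF6* also rose, with adjusted p between 0.0516 and 0.0792. *ERP44*, which retains proteins in the early secretory pathway, fell (262 against 574, adjusted p 0.000263), as did *CREB3L2* (172 against 313). The main chaperone BiP (*HSPA5*) averaged 436.8 and 437.7, and *HSP90B1* 207 and 297 (adjusted p 0.315).

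Cytosolic chaperones had 6 of 42 higher and 2 lower (14.3% and 4.76%, against 9.62% and 6.55% of all genes), and 2 higher and 3 lower after centring. *FKBP5* was the first of those that rose. *BAG3*, the co-chaperone of filamin turnover in muscle, fell (185 in the induced torpor+radiation group against 380 in the control group, adjusted p 0.00368), and the prefoldin subunit *VBP1* rose (458 against 276). The hypoxia list gave 1 higher and 2 lower of 15 (6.67% and 13.3%), with *BNIP3*, a mitophagy receptor, at 79.9 and 202 (adjusted p 0.0364). In the autophagy and lysosome list 6 of 53 rose and 2 fell (11.3% and 3.77%, against 9.62% and 6.55% of all genes), while after centring 3 were higher and 5 lower. Those that rose were led by cathepsin H (*CTSH*, 386 against 188) and the proton pump subunit *ATP6V1D* (601 against 258), and the lysosomal membrane protein *SCARB2* fell (86.1 against 258).

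Of 60 genes of splicing and cold-responsive RNA binding 14 were higher and none lower (23.3%, against 9.62% of all genes). Their median was 0.34, and after centring 10 were higher and 2 lower. *SNRPG* averaged 304 normalized counts in the induced torpor+radiation group and 55.6 in the control group (log2 fold change 2.45 ± 0.41 SE, adjusted p 5.35e-07), *LSM5* 407 and 103, *SF3B5* 106 and 31.4, and *SNRPD1* 127 and 44.5. All 4 encode subunits of Sm or Sm-like rings or of the U2 particle, and the other 46 genes of the list were not called.

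Clock genes moved in both directions. Of 9 clock genes 4 were higher and 2 lower (44.4% and 22.2%, against 9.62% and 6.55% of all genes), and 3 and 2 after centring. *NR1D1*, the repressor REV-ERBα, averaged 331 in the induced torpor+radiation group, 242 in the induced torpor group, 34.96 in the radiation group and 13.4 in the control group (24.6-fold over control, adjusted p 4.64e-08). The cryptochrome *CRY2* averaged 367 in the induced torpor+radiation group and 99.1 in the control group, and the repressor *CIART* 126 and 22.4. *PER3* fell, with 331 against 1757 (log2 fold change −2.41 ± 0.50 SE, adjusted p 8.97e-05). The hour at which fish were killed is not given in the sources used here.

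Of 43 genes of the dystrophin complex, Z-disc and sarcomere 10 were lower (23.3%, against 6.55% of all genes) and 3 higher, with a median of −0.48, and 30 were not called. Synemin (*SYNM*), an intermediate filament protein that ties Z-discs to costameres, averaged 24.5 normalized counts in the induced torpor+radiation group, 65.1 in the induced torpor group, 208 in the radiation group and 200 in the control group. That was 8.18-fold lower than control (log2 fold change −3.03 ± 0.48 SE, adjusted p 8.11e-08). Dystrophin (*DMD*) averaged 1121 in the induced torpor+radiation group and 2902 in the control group (2.59-fold lower, adjusted p 0.00260), and its partner dystroglycan (*DAG1*) 860 and 1416. *MYOT* of the Z-disc averaged 392 and 1226 (adjusted p 0.0372), and *NEB*, given above, had an adjusted p of 0.0112.

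Slow-type myosin binding protein C (*MYBPC1*) averaged 827 in the induced torpor+radiation group and 2002 in the control group (log2 fold change −1.28 ± 0.41 SE, adjusted p 0.0244). The 3 genes that rose were titin cap (*TCAP*, 4071 against 1282), *MYH14*, a non-muscle-type myosin heavy chain (316 against 98.2), and the membrane repair protein *DYSF* (920 against 449). *TCAP* was also high in the induced torpor and radiation groups, at 4717 and 5473.

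The study measured *ERBB2* and *MYBPC1* a second time by quantitative PCR, and its primers are shown to identify those assays. The primers were not aligned here and the results of the assays are not part of these data. They are printed 5′ to 3′ in lower case, as primers of 20 to 22 bases.
erbb2 forward: ccactatctacgacccaatcac
erbb2 reverse: ttcccattcccagaccataac
mybpc1 forward: cttcctaatgatagcgaccctg
mybpc1 reverse: tgcccttgaaccactttacg
The receptor tyrosine kinase *ERBB2* averaged 26.8 normalized counts in the induced torpor+radiation group, 32.3 in the induced torpor group, 25.3 in the radiation group and 78.3 in the control group (log2 fold change over control −1.55 ± 0.60 SE, adjusted p 0.0755). It passed at 0.1 and not at 0.05. The means of all 3 treated groups were below that of the control group, and only the call for induced torpor+radiation passed (adjusted p 0.251 and 0.318 for induced torpor and radiation).

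Of 35 integrin, focal adhesion and actin regulator genes 7 were lower and none higher (20% and 0%, against 6.55% and 9.62% of all genes). Their median was −0.43, and 28 were not called. The kindlin *FERMT2* averaged 110 in the induced torpor+radiation group and 438 in the control group (adjusted p 0.024), integrin *ITGA1* 95.2 and 212, and *CTNNA1* 103 and 184. In the list of collagens and their maturation 4 of 26 genes were lower and none higher (15.4% and 0%, against 6.55% and 9.62% of all genes). They were *COL4A1*, *COL8A2*, *COL17A1*, named col19a1 in zebrafish, and the protease *ADAMTS3*. *ADAMTS3* averaged 4.11, 6.27, 10.4 and 24.3 in the induced torpor+radiation, induced torpor, radiation and control groups. It passed the baseMean minimum only through the control group, so its call carries no weight as a count. The basement membrane collagen *COL4A1* averaged 722 and 1763 (adjusted p 0.0267) and *COL8A2* 29.5 and 97.2. The median over the list of collagens and their maturation was −0.01 for the induced torpor+radiation group over the controls. For the induced torpor group it was −0.69 over the same controls, with 6 of the 26 lower (3.97% of all genes). The summed level of the 29 listed genes in the table was 26132, 12183, 19369 and 26524 in the induced torpor+radiation, induced torpor, radiation and control groups. Of 35 other matrix genes 6 were lower and 2 higher (17.1% and 5.71%), or 8 and 2 after centring. Perlecan (*HSPG2*) averaged 735 in the induced torpor+radiation group and 2241 in the control group (adjusted p 0.00114), and the protease *ADAMTS1* 24.5 and 4.48 (adjusted p 0.0304).

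Genes of excitation and calcium handling gave 4 lower and 1 higher of 31 (12.9% and 3.23%, against 6.55% and 9.62% of all genes), and 6 lower and none higher after centring. Calsequestrin *CASQ2* averaged 340 normalized counts in the induced torpor+radiation group and 876 in the control group (adjusted p 0.00918), the ion channel *PKD2* 45.8 and 121, and junctophilin *JPH2*, which joins the T-tubule to the sarcoplasmic reticulum, 3933 and 7729.

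Myogenic regulators went opposite ways. *MYF5*, which marks myoblasts and satellite cells, averaged 188 in the induced torpor+radiation group, 360 in the induced torpor group, 35.9 in the radiation group and 61.6 in the control group (log2 fold change over control 1.61 ± 0.35 SE, adjusted p 0.000261). *MYOD1* averaged 447 in the induced torpor+radiation group and 176 in the control group (adjusted p 0.00182). *MYF6*, the factor of mature fibres, fell, with 68.4 against 199 (adjusted p 0.000723). *MYOG* averaged 177 and 154 and did not pass (adjusted p 0.887). The list of 34 myogenic and atrophy genes had 3 higher and 6 lower (8.82% and 17.6%, against 9.62% and 6.55% of all genes).

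The atrophy ubiquitin ligase atrogin-1 (*FBXO32*), which marks proteins for degradation in wasting muscle, set this group apart from both single treatments. It averaged 208 normalized counts in the induced torpor+radiation group, 1055 in the induced torpor group, 2267 in the radiation group and 847 in the control group. The log2 fold change over control was −2.03 ± 0.46 SE (adjusted p 0.000563), against 0.32 for induced torpor (adjusted p 0.798) and 1.42 for radiation (adjusted p 0.14). The difference from induced torpor was −2.35 ± 0.46 SE (adjusted p 0.00264) and that from radiation −3.45 (adjusted p 6.29e-14).

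**Figure D4:**
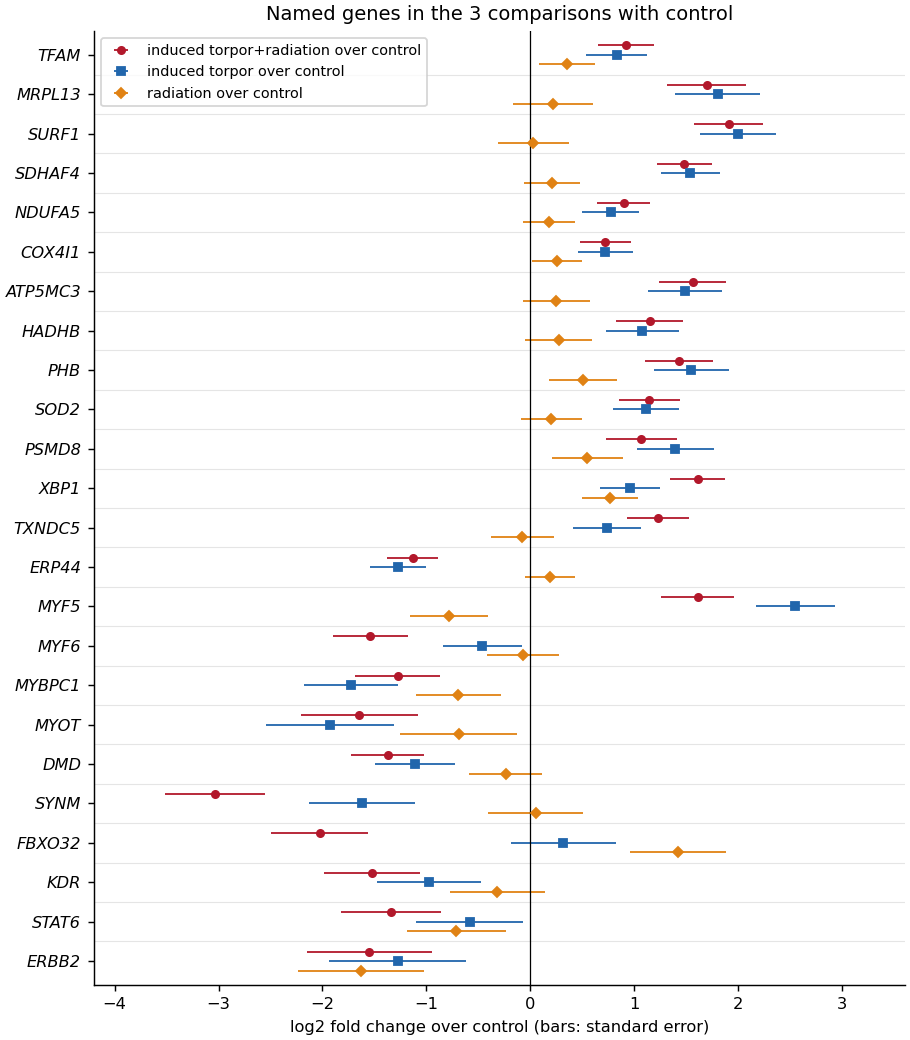
Log2 fold change over the control group (horizontal, with bars for 1 SE) of 24 named genes in the induced torpor+radiation, induced torpor and radiation groups. The mitochondrial genes of the induced torpor+radiation and induced torpor groups lie together above 0, *SYNM* lies lowest at −3.03, and *FBXO32* spreads between −2.03 and 1.42.

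Signalling lists held few calls. Of 19 JAK-STAT and cytokine receptor genes 1 was higher and 2 were lower (5.26% and 10.5%, against 9.62% and 6.55% of all genes). Their median was −0.36, and after centring 1 was higher and 4 were lower. *STAT6*, the transcription factor of interleukin-4 signalling, averaged 33.2 in the induced torpor+radiation group and 84.0 in the control group (adjusted p 0.0498), the gene with the human orthologue symbol *IFNAR1*, which the table names il10rb in zebrafish, 188 and 414 (adjusted p 0.0112), and *RELT* rose (48.8 against 15.2). *JAK1* averaged 203 and 337 and did not pass (adjusted p 0.112), though it did after centring. *STAT3* averaged 162 and 266 (adjusted p 0.189). Of 30 stress kinase and immediate transcription factor genes 1 rose and 2 fell (3.33% and 6.67%). The p38 kinase activator *MAP2K6* averaged 926 in the induced torpor+radiation group, 586 in the induced torpor group, 288 in the radiation group and 510 in the control group (log2 fold change over control 0.86 ± 0.24 SE, adjusted p 0.00762). *CREM*, a cyclic AMP-responsive factor, averaged 21.1, 61.8, 208 and 69.9 in the same order (adjusted p over control 0.00429).

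Of 41 endothelial and vessel development genes 6 were lower and none higher (14.6% and 0%, against 6.55% and 9.62% of all genes). Their median was −0.39. The endothelial receptors *TIE1* and *KDR* averaged 13.8 and 64.1 normalized counts in the induced torpor+radiation group, against 71.8 and 184 in the control group (adjusted p 0.000742 and 0.0154), and *NRP1* and *SEMA3C* 33.1 and 329 against 83.7 and 827.

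Of the 106 cell cycle genes in the deposited data, 50 passed the baseMean minimum, and 7 of them were lower and none higher. Among the 50, *CCNA1*, *CCNA2*, *CCNB1* and *CCNB2* passed it only through the control group, so the count is no result about the list. The mitotic cyclins *CCNB1* and *CCNB2* averaged 12.6 and 3.43 in the induced torpor+radiation group, 8.20 and 1.60 in the induced torpor group, 6.06 and 2.09 in the radiation group and 153 and 75.9 in the control group. Both ran with the oocyte markers called lower, being high in the control group and low in all 3 others. The replication licensing inhibitor *GMNN* averaged 16.7 in the induced torpor+radiation group, 28.1 in the induced torpor group, 20.9 in the radiation group and 89.6 in the control group. The histone chaperone *NASP* averaged 22.4, 26.7, 20.8 and 127 in the same order. *GMNN* and *NASP* were called lower than control in every treated group. The median of the list was −0.14 in the induced torpor+radiation group, −0.49 in the induced torpor group and −0.53 in the radiation group, each over the same controls.

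DNA repair and p53 target genes had 5 of 75 higher and 2 lower (6.67% and 2.67%), shares below those over all genes. The base excision repair pair rose together, *APEX1* as given above and DNA polymerase β (*POLB*), with 209 normalized counts in the induced torpor+radiation group, 190 in the induced torpor group, 60.7 in the radiation group and 50.4 in the control group (log2 fold change over control 2.05 ± 0.36 SE, adjusted p 1.71e-06). The mismatch repair gene *MSH6* fell, with 61.7 in the induced torpor+radiation group against 252 in the control group (adjusted p 6.03e-05), as did *CCNG2* (270 against 766). *ERCC6* and *TP53BP1* rose, with 103 and 393 in the induced torpor+radiation group against 44.0 and 197 in the control group.

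In sterol and unsaturated lipid synthesis 2 of 19 rose and 1 fell (10.5% and 5.26%, near the 9.62% and 6.55% over all genes). *HSD17B7* averaged 67.6 in the induced torpor+radiation group, 76.4 in the induced torpor group, 7.80 in the radiation group and 6.20 in the control group. It passed the baseMean minimum only through the induced torpor+radiation and induced torpor groups, so its call carries no weight as a count. *GPAM* averaged 944 in the induced torpor+radiation group and 438 in the control group, and the lipogenic regulator *SREBF1* 32.0 and 132. *SLC38A9*, the lysosomal arginine sensor of mTORC1, fell outside these lists, with 17.8 against 96.6 (5.43-fold lower, adjusted p 0.00124).

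The next question was where adding radiation to induced torpor changed expression. Against the induced torpor group, 7 genes were higher and 7 lower in the induced torpor+radiation group, 0.108% of those tested in each direction and 0.215% together, with 268 genes at an unadjusted p under 0.05. These differences were computed from the group means and standard errors of the tables. Besides the dose, the groups differ in code letter, with 1 F code in the induced torpor+radiation group and only M codes in the induced torpor group. The irradiated fish were also anaesthetized with tricaine and handled singly for each exposure. The paper describes no such handling of fish that were not irradiated. Dose, handling and code letter cannot be told apart here. None of the 14 passed when the t distribution with 6 degrees of freedom was used. The genes that were lower included *SLC6A9*, with 425 normalized counts in the induced torpor+radiation group and 1071 in the induced torpor group (difference −1.33 ± 0.28 SE, adjusted p 0.00396), although both were above the 83.7 of the control group. *ATG9B*, which supplies membrane to autophagosomes, averaged 524 and 1244 (adjusted p 0.00396), and the selective autophagy receptor *CALCOCO2* 1550 and 3141 (adjusted p 0.0390). The PX domain protein *PXK* and the complex I subunit *NDUFB2* were lower too, *NDUFB2* with 847 against 2146.

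The genes that were higher than in the induced torpor group had mixed roles. The DNA helicase *DDX11* averaged 82.2 normalized counts in the induced torpor+radiation group, 18.1 in the induced torpor group, 32.5 in the radiation group and 26.4 in the control group (difference from induced torpor 2.18 ± 0.50 SE, adjusted p 0.0179). *AKAP6* averaged 378 in the induced torpor+radiation group and 135 in the induced torpor group (adjusted p 0.0179). The type I collagen chain *COL1A2* averaged 9829 and 2588 (adjusted p 0.0535), with 8852 in the control group, so that its log2 fold change over control was 0.15. The muscle fructose bisphosphatase *FBP2*, the muscle enolase *ENO3* and the ribosomal protein *RPL13* were likewise higher than in the induced torpor group while none of them was called against the control group (adjusted p 0.418, 0.143 and 0.428).

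**Figure D5:**
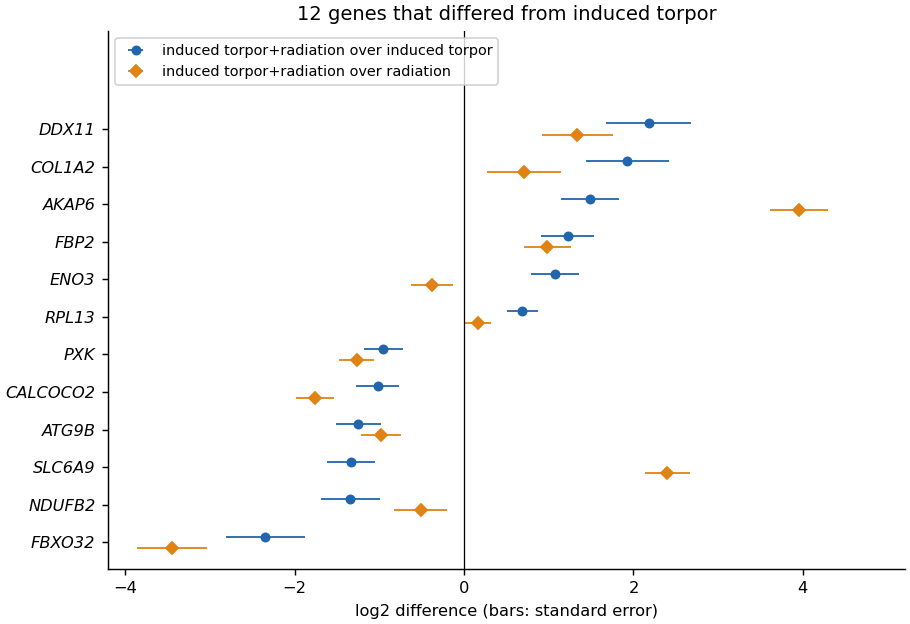
Log2 difference (horizontal, with bars for 1 SE) that set the induced torpor+radiation group against each single treatment, induced torpor or radiation, for 12 of the genes that differed from induced torpor at an adjusted p of 0.1 or less. *DDX11* stands highest against induced torpor at 2.18 and *FBXO32* lowest at −2.35. *SLC6A9* is lower than in induced torpor and higher than in radiation.

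The radiation group shares the dose and differs in temperature, melatonin and the letters of the fish codes. Its fish all had F codes, against 2 M codes and 1 F code in the induced torpor+radiation group. These differences cannot be told apart. Against the radiation group, 592 genes were higher and 451 lower in the induced torpor+radiation group, 9.11% and 6.94% of those tested and 16% together. The genes that rose with the smallest p were *PDE4DIP* (1603 normalized counts in the induced torpor+radiation group and 147 in the radiation group, difference 3.45, adjusted p 2.31e-28), *AKAP6* (378 and 24.4), *THNSL2* (474 and 33.4), *APEX1* (764 and 144) and *GPX4* (1691 and 466). Those that fell were *SETD7*, *FBXO32*, *ABTB1*, *CREM* and *CALCOCO2*, the last with 1550 in the induced torpor+radiation group and 5260 in the radiation group (adjusted p 2.80e-12). Of the mitochondrial ribosomal proteins 11 of 67 were higher and none lower than in the radiation group, and of 39 assembly factors 9 were higher and 1 lower. *MAP2K6* was higher than in the radiation group by 1.68 (adjusted p 5.34e-12). With the t distribution 3 of these genes passed, all of them higher, and 1003 had an unadjusted p under 0.05.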

How the data were processed

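Poly(A)-selected RNA of the dorsal muscle of 10 fish was sequenced as stranded read pairs, to a stated minimum depth that is not broken down by fish in the sources used here. The extract protocol of the labels names liver where the source, the characteristics and the paper name muscle. The authors checked reads with FastQC, used STAR for alignment to GRCz11 and HTSeq for counting, and compared groups in DESeq2, and the labels also list cutadapt. Versions are not given in the sources used here. The authors deposited 3 tables of a treated group against the control. In each, the deposited signal column (baseMean) is the mean over all fish of depth-scaled counts. The deposited log2 columns hold the log2 fold change over control and its standard error, the deposited score is the Wald statistic, and the deposited p-value columns hold p and its Benjamini-Hochberg adjustment. Counts per fish were not analysed here, so the depth behind a value, replicate spread and leave-one-out fits are not given, and the adjusted p-values are those of the authors' DESeq2 fit.

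Group means were solved from the baseMean, the group sizes and the 3 log2 fold changes. The dispersion of each gene was solved from the standard errors under a negative binomial variance (median of the 3), and the induced torpor+radiation group was set against the induced torpor and radiation groups by a two-sided Wald test with Benjamini-Hochberg adjustment over 6499 genes. Over 389 genes with a baseMean of at least 1000 the standard errors of the induced torpor+radiation and induced torpor tables had a ratio of 0.913, the value that 3 against 2 fish give. The recalculated standard errors were 1.00, 1.01 and 0.997 times the deposited ones. Calls use an adjusted p of 0.1 or less, the paper's threshold for its comparisons with induced torpor, and radiation against control is called at the same value here although the paper used a looser one for it. Python 3.11.15 with numpy 2.4.6, pandas 2.3.3, scipy 1.17.1 and matplotlib 3.10.9 was used. The algebra of the recovery was checked on simulated data built with the same formulas, which cannot test how well it holds for the authors' fit.

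The text names the genes the study names for this comparison, the 10 higher and 10 lower genes with the smallest p, the 5 and 5 with the largest fold whose means exceed 10, the 4 members of each list with the smallest p, and the 5 called genes in each direction that differ most clearly from induced torpor or radiation. Each name is the human orthologue's symbol, and roles are those of that gene. Defining members of a list may be added by value. Of the genes the study names, *COX8A*, *COX7A2*, *CBS*, *GLUL* and *EP300* were not analysed here. A few genes that the rule would name are not reported here, though counts include them. The members, the 35 pathway lists and the 10 marker lists were chosen with earlier results of these data known. The alternatives were another reference distribution, set of adjusted genes, threshold, baseMean minimum, centring and fold minimum. Markers of ovarian follicle and testis somatic cells had no member. Of the remaining marker lists, erythrocyte genes had 1 of 7 lower, skin epithelium 1 higher and 1 lower of 7, adipocyte genes none of 4, liver 1 of 4 higher, and nerve and Schwann cell genes 1 of 11 lower. Over all genes tested 9.62% were higher and 6.55% lower.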

Additional observations from a re-analysis of the deposited data

Results flagged for a closer look

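Whether radiation changed a gene by a different amount under induced torpor than at 28.5 °C was tested from the 4 group means, as the log2 difference of the induced torpor+radiation group from the induced torpor group less that of the radiation group from the control group. The test was added after the data were seen. On the torpor side, the induced torpor+radiation group had 2 M codes and 1 F code, and the induced torpor group only M codes. Both groups at 28.5 °C had only F codes. Irradiated fish were also anaesthetized and handled for each exposure. Dose, handling and code letter cannot be told apart in this test. At an adjusted p of 0.1 or less it called 30 genes (0.462% of those tested), 20 with a higher and 10 with a lower value (0.308% and 0.154%), with 317 at an unadjusted p under 0.05. With the t distribution none passed (lowest adjusted p 0.9996).

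Among the 10 lower values, *FBXO32* stood at −3.77, *CREM* at −3.12, *CLEC19A*, a lectin-domain gene, at −4.13 and *TCAP* at −2.31. The stress-responsive factor *CEBPD* was at −2.20 and the tyrosyl-tRNA synthetase *YARS1* at −1.94. The autophagy genes *ATG9B* and *CALCOCO2* were at −1.91 and −1.68, *PXK* at −1.57 and *NDUFB2* at −1.75. *CEBPD* averaged 305 normalized counts in the induced torpor+radiation group, 470 in the induced torpor group, 745 in the radiation group and 250 in the control group.

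Among the 20 higher values, the kinase gene *MAP2K6* was at 1.48, the gluconeogenic *FBP2* at 1.78, the glycine cleavage gene *GLDC* at 3.64 and *FAH* of tyrosine breakdown at 3.27. *COL1A2* was at 2.48.

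A further 14 were germ cell or dividing cell genes. The mitotic genes *CCNA2*, *CCNB1*, *CCNB2*, *CDC20*, *TPX2*, *CKAP2* and *UBE2C* were at 6.62, 5.29, 6.28, 4.61, 4.26, 5.34 and 4.29. The replication and chromatin genes *CDCA7*, *CHAF1A*, *DNMT1* and *NASP* were at 5.99, 3.91, 2.18 and 2.35. The importin *KPNA2* was at 4.46, and *H1-8* and *TUBA4B* of the oocyte marker list were at 4.004 and 4.40. Some means lay under the floor of 3 normalized counts, so the sizes given for *CCNA2*, *CCNB2* and *CDCA7* are not reliable. *CCNA2* averaged 1.40 in the radiation group. In the induced torpor and radiation groups *CCNB2* averaged 1.60 and 2.09, and *CDCA7* 2.76 and 1.78. The summed oocyte markers stood at 79.0 in the induced torpor+radiation group, 74.7 in the induced torpor group, 46.3 in the radiation group and 742 in the control group. *PIWIL2*, *SYCP1* and *STK31*, which were not called, made up most of the sum in the induced torpor+radiation and induced torpor groups. *CCNA2*, *CCNB1*, *CCNB2*, *CDC20*, *CDCA7*, *NASP*, *H1-8* and *TUBA4B* had a like pattern, with the control group well above the other 3, and the part of oocyte RNA in their values was not tested. *CHAF1A* and *UBE2C* did not, with 41.2 and 18.1 normalized counts in the induced torpor+radiation group against 30.6 and 16.3 in the control group, nor did *CKAP2*, with 29.7 against 34.0. Of the genes with the control group well above the others, all but *NASP* passed the baseMean minimum only through the control group. Neither the 14 genes here nor the 20 higher values carry weight as a count.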

How the results depend on the processing

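With the t distribution (6 degrees of freedom, 10 fish less 4 groups) the counts against the control group were 0 higher, 0 lower and 0 in all. Against induced torpor they were 0, 0 and 0 (103 genes at an unadjusted p under 0.05, lowest adjusted p 0.9999), and against radiation 3, 0 and 3. The test of the difference in radiation response gave 0. Centring on the median of 0.15 gave 375 higher, and an adjusted p of 0.05 or less gave 275 lower and 700 in all. The median of the glycolysis and glycogen list was −0.32 and stood at 0.25 without a baseMean minimum and at 0.36 with a minimum of 50, while the other medians moved by less than the median standard error. Adjusting over members alone, the other baseMean minimums, a log2 fold minimum of 1 and another source of the dispersion kept counts within 1.5 times. Of 163 named genes, 151 lost their call with the t distribution. Under centring 12 lost it (among them *COX4I1*, *ECHS1*, *IDH3A*, *MT-CO2*, *MT-CO3*, *MTERF2*, *NDUFB9*, *NDUFS6*, *RPS29*, *SDHC* and *SLIRP*), 3 gained one (*JAK1*, *RELA* and *SCAP*) and none reversed. No paired analysis was possible because values of single fish were not analysed here, and leaving out each fish in turn was not run for the same reason. All comparisons with the control group share the same 2 control fish.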
